A study of Mus musculus with 14 samples.

Results

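The genes of cholesterol and lipid synthesis and transport were examined in the brain transcriptome of Rik null mouse pups. The group held 34 genes, found by their gene names among the 56748 genes of the count table, and all 34 were among the 18170 genes that passed the filter on low counts. They were placed in groups by role: 7 enzymes of the mevalonate steps, 11 enzymes that lead from squalene to cholesterol, 5 genes of SREBP control, 8 genes of cholesterol transport, uptake, export and turnover, and 3 genes of fatty acid synthesis.

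RNA-seq was performed on brains of 14 mouse pups on the C57BL6/J background at postnatal day 14 (P14), 8 Rik null (RIK KO in the labels) and 6 wild type (WT). Each pup gave its own library. Rik null pups are homozygous for a spontaneous deletion in the first intron of 2310061I04Rik (Rik), a germline change present in every cell, which arose in 1 embryonic stem cell clone during the making of a floxed Traf7 allele and was then separated from that allele by breeding. The study's methods describe the pups as littermates of either sex, and the design asks how the brain transcriptome differed at the age when the weight gain of the mutants begins to fall behind. The labels name whole brain as the tissue while the design text says that 1 side of each midline cut was submitted, so all cell types of the brain are mixed in each value, and fewer cells of a type cannot be told apart from less RNA per cell.

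The brain makes nearly all of its own cholesterol, because lipoproteins of the blood do not cross the blood-brain barrier. The weeks after birth are the main period of myelination in mice, when oligodendrocytes make large amounts of cholesterol and fatty acids for the membranes they wrap around axons. Acetyl-CoA is turned through mevalonate and isoprenoid units into squalene, which is closed into lanosterol and trimmed to cholesterol. The membrane-bound transcription factors SREBP1 and SREBP2 drive the genes of these steps when sterols are low: SCAP escorts them from the endoplasmic reticulum to the Golgi for cleavage, and the INSIG proteins hold SCAP back when sterols are plentiful. Astrocytes export cholesterol on apolipoprotein E through ABC transporters, neurons and other cells take these particles up through receptors of the LDL receptor family, and neurons clear excess cholesterol by hydroxylation.

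The counts summed to between 15183130 and 30993890 per library. The level of Rik itself was 74.2 ± 4.79 CPM (counts scaled by depth and edgeR's TMM factors; mean ± SD, n = 6) in WT and 9.10 ± 0.968 CPM (n = 8) in Rik null brains, and every Rik null library lay below every WT library. In 2 libraries the sex in the label went against the counts: WT 1, labelled male, held the X-inactivation RNA Xist and no reads of Y-linked genes, and WT 6, labelled female, held reads of Y-linked genes. By the counts 7 of 8 Rik null and 2 of 6 WT pups were male, so sex and genotype were only partly separate. The growth hormone transcript Gh, made in the pituitary, stood out in Rik null 5 (44.3 CPM) and Rik null 8 (186 CPM), with no WT library over 0.97 CPM. Clustering of the libraries on all tested genes other than the 34 gave 2 sets that did not follow genotype: library set 1 held 4 Rik null and 4 WT libraries (Rik null 1, 6, 7 and 8; WT 1, 4, 5 and 6) and library set 2 held 4 Rik null and 2 WT libraries (Rik null 2 to 5; WT 2 and 3). No label names an origin for these sets. They were taken from the counts of these same libraries, so p-values of fits that use them may be too small.

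Levels were compared between genes as FPKM, the deposited unit that scales counts by gene length and library. Apoe, the main apolipoprotein of the brain, had the highest level of the 34 genes at 820 to 1134 FPKM over the 14 libraries. Scd2, the stearoyl-CoA desaturase that is the main form in the mouse brain, came next at 309 to 371 FPKM. Hmgcs1, the cytosolic HMG-CoA synthase, lay below these at 73.3 to 104 FPKM and was the highest of the sterol enzymes. The ranges of these 3 genes did not overlap. Cyp46a1, the neuronal cholesterol 24-hydroxylase, followed at 51.4 to 68.2 FPKM, and Fasn, fatty acid synthase, at 36.9 to 51.9 FPKM, a range that reached into that of Cyp46a1. Srebf2, which encodes SREBP2, lay at 35.8 to 43.3 FPKM. From there down to Abca1, an ABC transporter that loads lipid onto apolipoproteins, at 3.36 to 5.39 FPKM, the ranges of neighbouring genes overlapped, with the exception of Pmvk (19.6 to 25.9 FPKM) and Sc5d (15.4 to 18.9 FPKM). Fdps, farnesyl diphosphate synthase, stood last at 0.359 to 0.622 FPKM, under every library of every other member. It had 695 counts over the 14 libraries, and in GENCODE M21 26.7% of its exon bases lie under another gene of the same strand, Gm43738, which received 4 counts, so the level of Fdps is uncertain.

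**Figure D1:**
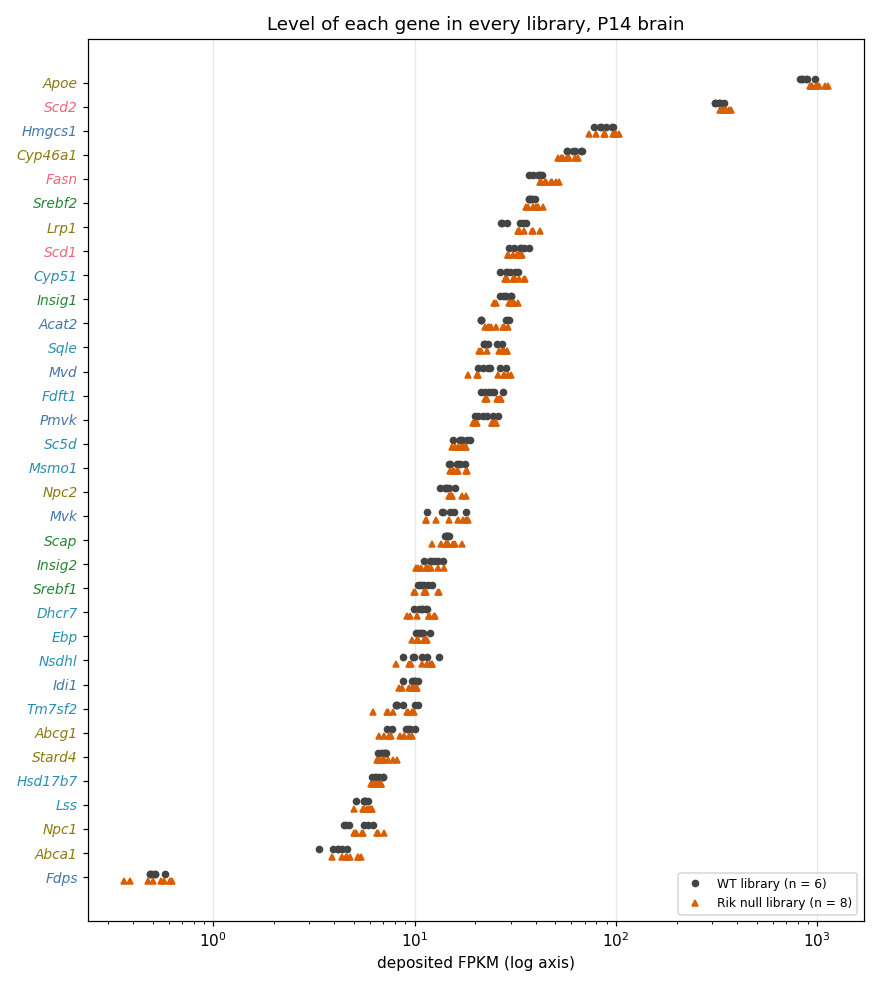
Deposited FPKM (log axis) of the 34 genes in every library, ordered by mean; circles are the 6 WT and triangles the 8 Rik null libraries, and gene names are coloured by role. Apoe lies at 820 to 1134 FPKM, Fdps at 0.359 to 0.622 FPKM, and the genotypes overlap for every gene.

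Between the genotypes edgeR called none of the 34 genes and DESeq2 called 3. With edgeR's quasi-likelihood test, at an adjusted p (Benjamini-Hochberg over all tested genes) no greater than 0.05, 0 of 34 were called, against 602 of 18170 tested genes (3.31%). At an unadjusted p under 0.05 there were 7 of 34, beside 18.6% of all tested genes: 6 with a higher mean in Rik null brains (Fasn, Apoe, Abca1, Scd2, Lrp1 and Npc2; 8.34% of all genes) and 1 with a lower mean (Cyp46a1; 10.3% of all genes). DESeq2's Wald test called 3 of 34 as higher in Rik null brains, Fasn, Apoe and Scd2 (2.92% of all tested genes were called higher), and 0 as lower (3.39%), with 6 of 34 at an unadjusted p under 0.05 (18.9% of all tested genes). The values of every member overlapped between the genotypes, whereas 0.517% of all genes had every Rik null library above every WT library and 1.23% had every one below. At the thresholds of the study's methods, which add a log2 fold change of 1 or more in size to the same adjusted p, 0 members and 20 tested genes passed.

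The estimates were small and the intervals narrow. The 34 log2 fold changes (Rik null over WT) ran from -0.13 to 0.20 with a median of 0.03, beside a median of 0.0017 over all tested genes, and 22 of them were within 0.1 of 0. Their median standard error was 0.062, beside 0.087 over all tested genes. The tested genes include many of low level: 10601 of 18170 had a mean of at least 10 CPM, as had every member but Fdps. Over these 10601 genes the median size of the log2 fold change was 0.071, beside 0.052 over the 34 members. A standard error for genes of like level was not computed. The 95% interval lay within 1.5-fold of no difference in either direction for 34 of 34 members, and within 1.2-fold for 23.

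**Figure D2:**
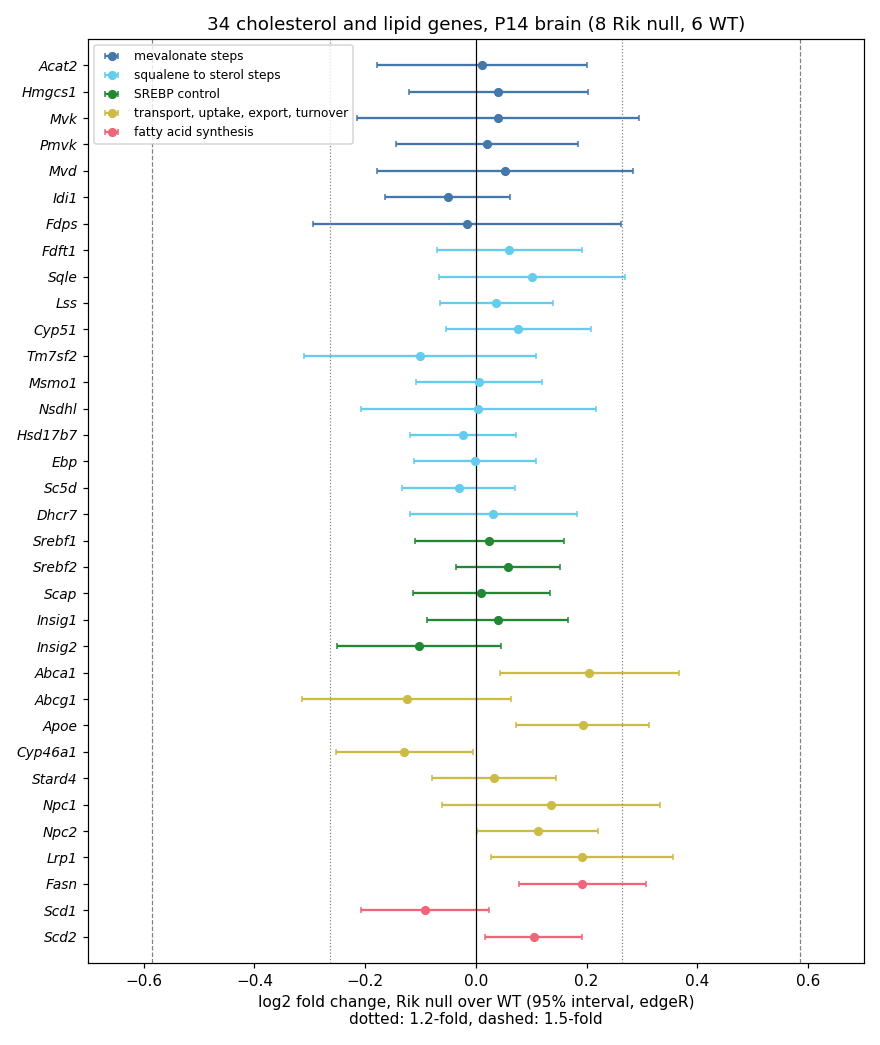
Log2 fold change of each of the 34 genes in Rik null (n = 8) over WT (n = 6) brains with its 95% interval from edgeR, coloured by role; dotted and dashed lines mark 1.2-fold and 1.5-fold. All 34 intervals lie inside the dashed lines, and 7 leave out 0.

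In the fit on genotype alone no enzyme of sterol synthesis passed the test. With library set as a block 1 was called lower (Tm7sf2), beside 4.56% of all tested genes. On genotype alone 0 of the 18 enzymes were called by edgeR (3.31% of all tested genes) and 0 by DESeq2 (6.31%). At an unadjusted p under 0.05 there were 0 with edgeR (18.6% of all tested genes) and 0 with DESeq2 (18.9%). At these shares of called genes, 0 calls is no result about the 18 enzymes. Their log2 fold changes ran from -0.10 (Tm7sf2) to 0.10 (Sqle) with a median of 0.015, and 12 were above 0. All 18 intervals were within 1.5-fold and 13 within 1.2-fold. Summed over the 18 genes, the level was 1344 to 1568 CPM in WT (mean 1438) and 1269 to 1607 CPM in Rik null libraries (mean 1471).

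Among the mevalonate steps, Hmgcs1, which makes HMG-CoA and is a classical SREBP2 target, had 360, 404 and 452 CPM (lowest, median and highest) in WT and 338, 427 and 479 CPM in Rik null libraries. The WT range thus lay inside the Rik null range. Its log2 fold change was 0.04 (SE 0.077, adjusted p = 0.818 with edgeR), with an interval from -0.12 to 0.20. Acat2, the cytosolic thiolase of the first step, had an estimate of 0.010, and Mvk, Pmvk and Mvd, which phosphorylate and decarboxylate mevalonate, had estimates of 0.04, 0.02 and 0.05. Idi1, the isomerase of the isoprenoid units, had -0.05 and Fdps -0.017. The smallest adjusted p of these 7 genes was 0.650. The widest interval was that of Fdps, from -0.29 to 0.26, and its Rik null libraries spread from 1.52 to 2.63 CPM.

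Among the steps from squalene to cholesterol, Cyp51, the lanosterol demethylase and the highest of these enzymes per length at 26.6 to 35.5 FPKM, had 118, 130 and 146 CPM in WT and 125, 139 and 158 CPM in Rik null libraries. In Rik null brains 3 of 8 libraries were above the highest WT library, and 1 of 6 WT libraries was below the lowest Rik null library. Its log2 fold change was 0.08 (SE 0.062, adjusted p = 0.537 with edgeR). Sqle, squalene epoxidase, an early control point of the sterol branch, had the largest estimate of the 18 enzymes at 0.10 (SE 0.080, adjusted p = 0.524). Fdft1 (squalene synthase) and Lss (lanosterol synthase) had estimates of 0.06 and 0.04. The demethylation enzymes Msmo1, Nsdhl and Hsd17b7 had 0.0049, 0.0044 and -0.02. The last steps, Ebp (sterol isomerase), Sc5d (sterol desaturase) and Dhcr7 (7-dehydrocholesterol reductase), had -0.0017, -0.03 and 0.03. Tm7sf2, a sterol 14-reductase, had the lowest estimate, -0.10 (SE 0.099, adjusted p = 0.625), and was called lower with library set as a block (-0.17, adjusted p = 0.0410). In GENCODE M21 exons of Tm7sf2 share 12.1% of their bases with Vps51 on the same strand. Those of Fdft1 and Hmgcs1 share 18.3% and 12.1% with genes on the opposite strand (Ctsb and Gm48342). The counts may rest on another annotation: Fdft1 has 4227 exon bases in GENCODE M21 and a deposited length of 4116 bases. The strandedness of the counting is not given in the sources used here, so reads of these stretches may belong to either gene.

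Of the 5 genes of SREBP control, 0 were called by edgeR (3.31% of all tested genes) and 0 by DESeq2 (6.31%). At an unadjusted p under 0.05 there were 0 with either tool (18.6% and 18.9% of all tested genes). At such shares, 0 of 5 is no result about these genes. Their log2 fold changes ran from -0.10 to 0.06. Srebf2 had 267, 274 and 285 CPM in WT and 259, 290 and 313 CPM in Rik null libraries. In Rik null brains 5 of 8 libraries were above and 2 below the WT range, which was narrow at 274.7 ± 7.16 CPM against 286 ± 18.3 CPM. Its log2 fold change was 0.06 (SE 0.045, adjusted p = 0.510 with edgeR). Srebf1, whose SREBP1c product drives genes of fatty acid synthesis, had 59.4, 62.8 and 69.5 CPM in WT and 56.5, 63.9 and 74.7 CPM in Rik null libraries, with an estimate of 0.02 (SE 0.064, adjusted p = 0.876). Per length Srebf2 exceeded Srebf1 by a ratio of 3.01 to 3.70 in WT and 2.95 to 3.64 in Rik null libraries. The SREBP escort Scap had an estimate of 0.0099, with Rik null libraries from 91.7 to 128 CPM around WT libraries from 107 to 111 CPM.

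Insig1, itself an SREBP target, and Insig2, which is not driven in the same way, had estimates on either side of 0. Insig1 had 83.1, 88.6 and 94.1 CPM in WT and 77.5, 94.7 and 102 CPM in Rik null libraries, and its log2 fold change was 0.04 (SE 0.060, adjusted p = 0.770 with edgeR). Insig2 had 39.4, 43.4 and 48.8 CPM in WT and 35.5, 40.1 and 48.7 CPM in Rik null libraries, of which 3 of 8 were below every WT library. Its log2 fold change was -0.10 (SE 0.070, adjusted p = 0.459). The FPKM ratio of Insig1 to Insig2 had a median of 2.26 (2.12 to 2.52) in WT and 2.48 (2.06 to 3.22) in Rik null libraries, and the ranges overlapped.

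Of the 8 transport genes edgeR called 0 (3.31% of all tested genes) and DESeq2 called 1 as higher, Apoe (2.92%). At an unadjusted p under 0.05 there were 5 of 8 with edgeR (18.6% of all tested genes), 4 with a higher and 1 with a lower mean in Rik null brains, and 4 of 8 with DESeq2 (18.9%). The median log2 fold change was 0.12. Apoe carries cholesterol between cells of the brain. It had 1776, 1859 and 2095 CPM in WT and 1967, 2135 and 2435 CPM in Rik null libraries. In Rik null brains 5 of 8 libraries were above the highest WT library, and 5 of 6 WT libraries were below the lowest Rik null library, WT 1 being the library in the overlap. The log2 fold change was 0.19 (SE 0.057; fold 1.14, 95% interval 1.05 to 1.24), with an adjusted p of 0.0726 in edgeR and 0.0134 in DESeq2 (0.0117 to 0.334 over 14 alternatives).

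Abca1 and Abcg1, both exporters of cholesterol and both targets of the sterol-sensing LXR receptors, had estimates of opposite sign. Abca1 had 35.2, 43.7 and 48.3 CPM in WT and 40.6, 48.9 and 56.1 CPM in Rik null libraries, and 4 of 8 Rik null libraries were above the WT range. Its log2 fold change was 0.20 (SE 0.077, adjusted p = 0.156 with edgeR), the largest of the 34 members. Abcg1 had 54.1, 67.6 and 74.2 CPM in WT and 48.7, 59.1 and 71.1 CPM in Rik null libraries, with a log2 fold change of -0.13 (SE 0.090, adjusted p = 0.477). The FPKM ratio of Abca1 to Abcg1 ran from 0.371 to 0.539 in WT (median 0.479) and from 0.417 to 0.692 in Rik null libraries (median 0.611).

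Lrp1, a large endocytic receptor that takes up particles carrying apolipoprotein E, had 481, 559 and 638 CPM in WT and 583, 604 and 743 CPM in Rik null libraries. A group of 3 WT libraries (WT 1, 2 and 3) lay below every Rik null library, and a group of 3 Rik null libraries (Rik null 6, 7 and 8) above every WT library. The log2 fold change was 0.19 (SE 0.078), with an adjusted p of 0.194 in edgeR, 0.0216 with library set as a block and 0.0050 to 0.498 over 14 alternatives. Npc1 and Npc2 hand cholesterol out of lysosomes. Npc1, the membrane protein, had 51.2, 59.2 and 71.0 CPM in WT and 56.9, 62.7 and 80.6 CPM in Rik null libraries (log2 fold change 0.14, SE 0.093, adjusted p = 0.459). With library set as a block the adjusted p of Npc1 was 0.0475, and over 14 alternatives it ran from 0.0475 to 0.750. Npc2, the soluble partner, had 73.5, 79.1 and 86.9 CPM in WT and 80.8, 83.4 and 98.5 CPM in Rik null libraries (0.11, SE 0.052, adjusted p = 0.257), and 4 of 6 WT libraries were below every Rik null library. The FPKM ratio of Npc1 to Npc2 was 0.299 to 0.420 in WT and 0.308 to 0.439 in Rik null libraries.

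Cyp46a1, through which neurons turn cholesterol into the exportable 24-hydroxycholesterol, was the member with the smallest p among those with a lower mean in Rik null brains. It had 190, 204 and 226 CPM in WT and 170, 185 and 215 CPM in Rik null libraries. Of the Rik null libraries 5 of 8 were below every WT library, and 2 of 6 WT libraries were above every Rik null library. The log2 fold change was -0.13 (SE 0.059), with an unadjusted p of 0.0420 and an adjusted p of 0.248 in edgeR. Stard4, a carrier of cholesterol in the cytosol, had an estimate of 0.03.

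In fatty acid synthesis, Fasn was the member closest to a call. Fasn builds palmitate, the first product of the pathway. It had 408, 458 and 472 CPM in WT and 464, 511 and 571 CPM in Rik null libraries, 449 ± 24.5 CPM against 512 ± 40.2 CPM. Of the Rik null libraries 6 of 8 were above the highest WT library, and 4 of 6 WT libraries were below the lowest Rik null library. The log2 fold change was 0.19 (SE 0.055; fold 1.14, 95% interval 1.05 to 1.24), with an adjusted p of 0.0628 in edgeR and 0.0134 in DESeq2 (0.0049 to 0.462 over 14 alternatives). Without Rik null 1 or without Rik null 8 the edgeR call was made, and the lowest adjusted p was 0.0377. These fits called 340 of 18299 and 146 of 17864 tested genes as higher.

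The desaturases Scd1 and Scd2, which put the first double bond into stearate and palmitate, had estimates of opposite sign. Scd2 had 1712, 1792 and 1901 CPM in WT and 1817, 1921 and 2035 CPM in Rik null libraries, of which 5 of 8 were above the WT range. Its log2 fold change was 0.10 (SE 0.042), with an adjusted p of 0.186 in edgeR and 0.0373 in DESeq2 (0.0322 to 0.557 over 14 alternatives). Scd1 had 145, 166 and 182 CPM in WT and 143, 155 and 169 CPM in Rik null libraries, with a log2 fold change of -0.09 (SE 0.055, adjusted p = 0.393 with edgeR). The FPKM ratio of Scd2 to Scd1 within a library was 9.26 to 10.6 in WT (median 9.73) and 10.02 to 12.03 in Rik null libraries (median 11.2). These desaturases are close paralogs, and how reads shared by paralogs were counted is not given in the sources used here.

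**Figure D3:**
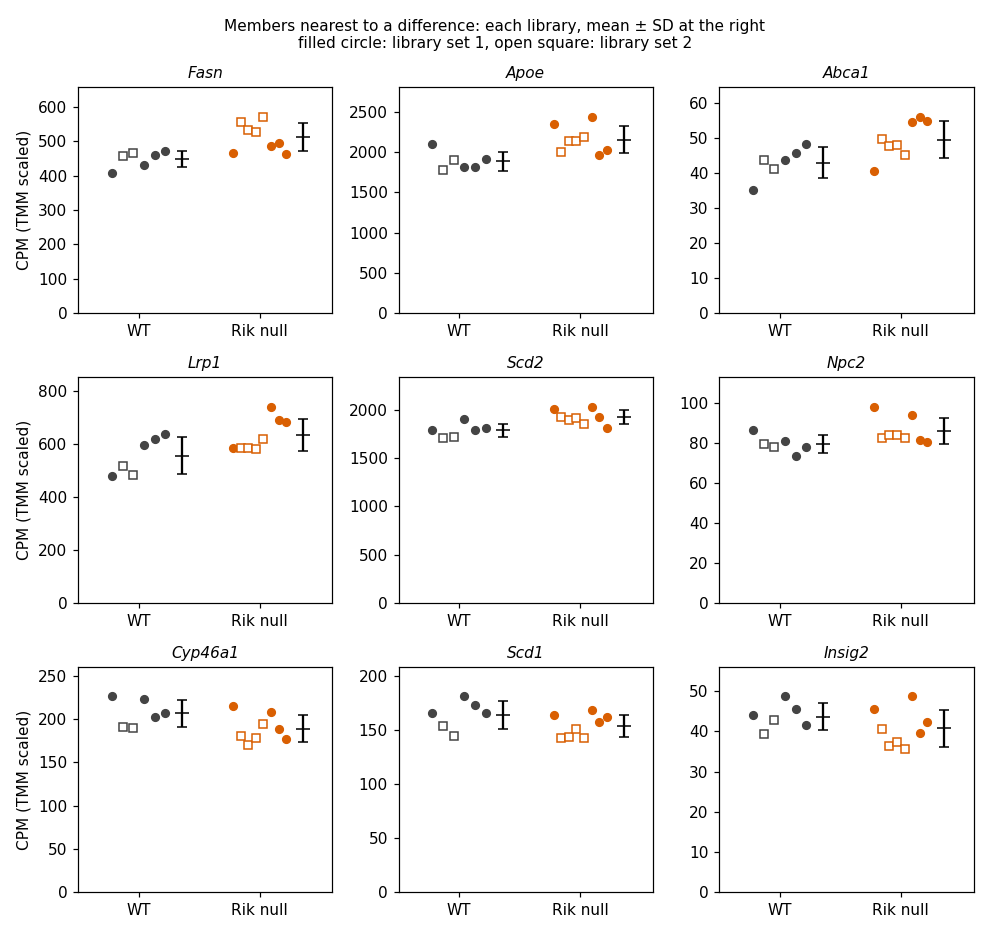
CPM of 9 members in each of the 6 WT and 8 Rik null libraries, with mean ± SD at the right of each group; filled circles are library set 1 and open squares library set 2. For Fasn 6 of 8 Rik null libraries and for Apoe 5 of 8 lie above the highest WT library, and the genotypes overlap in every panel.

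Promoter sequences of the 3 members with the smallest p are shown to let the regulatory letters be read beside the values, together with that of Hmgcs1, which was added after its match was seen. Each is the RefSeq window on GRCm38.p6 from 250 bases before the annotated start to 50 bases after it, printed 5′ to 3′ on the strand of the gene, with matches to 3 motifs in capitals. The motifs were the sterol regulatory element TCACNCCAC, CCAAT (the letters bound by NF-Y) and GGGCGG (the GC box bound by SP1), searched on both strands. Fasn lies at chr11:120824498-120824797 on the minus strand, Apoe at chr7:19699139-19699438 on the minus strand (the most upstream of its 3 annotated starts), Abca1 at chr4:53159846-53160145 on the minus strand and Hmgcs1 at chr13:119690101-119690400 on the plus strand.
Fasn: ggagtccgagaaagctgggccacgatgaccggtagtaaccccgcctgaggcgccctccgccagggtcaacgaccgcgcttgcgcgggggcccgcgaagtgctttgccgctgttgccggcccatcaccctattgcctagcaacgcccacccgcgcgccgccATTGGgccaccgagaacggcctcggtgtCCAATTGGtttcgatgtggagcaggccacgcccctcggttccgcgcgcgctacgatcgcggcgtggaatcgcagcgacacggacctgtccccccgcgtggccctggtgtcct
Apoe: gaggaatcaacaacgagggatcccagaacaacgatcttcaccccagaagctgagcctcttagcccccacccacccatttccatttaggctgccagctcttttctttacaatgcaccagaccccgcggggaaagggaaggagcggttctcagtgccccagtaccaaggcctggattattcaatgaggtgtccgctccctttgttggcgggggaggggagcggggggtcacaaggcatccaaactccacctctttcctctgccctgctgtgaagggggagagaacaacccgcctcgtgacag
Abca1: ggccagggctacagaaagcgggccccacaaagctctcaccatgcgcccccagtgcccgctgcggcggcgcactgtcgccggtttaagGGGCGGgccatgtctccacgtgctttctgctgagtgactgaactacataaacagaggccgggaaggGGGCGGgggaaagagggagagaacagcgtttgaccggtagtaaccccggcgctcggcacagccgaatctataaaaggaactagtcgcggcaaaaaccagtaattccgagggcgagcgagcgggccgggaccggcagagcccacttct
Hmgcs1: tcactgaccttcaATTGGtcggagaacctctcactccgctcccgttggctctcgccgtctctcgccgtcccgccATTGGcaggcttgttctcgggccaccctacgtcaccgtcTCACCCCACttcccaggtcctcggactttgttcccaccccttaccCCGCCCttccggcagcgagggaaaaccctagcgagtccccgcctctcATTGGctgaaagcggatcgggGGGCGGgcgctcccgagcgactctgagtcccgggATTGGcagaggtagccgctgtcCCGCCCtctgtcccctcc

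In the Fasn window CCAAT was found 3 times, at -90 to -86 and -59 to -55 on the opposite strand and at -62 to -58 on the strand of the gene, the last pair overlapping each other, and neither other motif was found. The Abca1 window held GGGCGG at -163 to -158 and at -97 to -92, and the Apoe window held none of these letters. Hmgcs1 held the sterol element TCACCCCAC at -137 to -129, with CCAAT 4 times and GGGCGG 3 times. Members on chromosome 18 (Npc1 and Stard4) were left out of the search, and 26 of the 34 members had 36 windows. The windows of all genes were not filtered by chromosome. The sterol element was in 1 of these 36 windows and in 1.24% of the 32851 windows in the table. CCAAT was in 22 (61.1%; 37.4% of all windows) and GGGCGG in 27 (75.0%; 35.7% of all windows). Some genes have several windows, and a match is a description of letters only.

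The calls of single members depended on the fit. With library set as a block, edgeR called 4 members as higher in Rik null brains, Fasn (adjusted p = 0.0171), Lrp1 (0.0216), Apoe (0.0227) and Npc1 (0.0475), beside 3.81% of all tested genes, and 1 as lower, Tm7sf2 (0.0410), beside 4.56%. Within library set 2 alone (4 Rik null and 2 WT libraries) Fasn, Lrp1, Apoe and Scd2 were called higher, beside 1.63% of all tested genes. The sets were defined from other genes of these libraries and then fitted as known, so these adjusted p may be too small. Within library set 1 alone (4 and 4) edgeR called 0 members, beside 0.253% of all tested genes, and 4 of 34 were at an unadjusted p under 0.05 (12.7% of all). With sex by counts as a term 0 members were called, beside 0.798% of all tested genes, and 2 of 34 were at an unadjusted p under 0.05 (13.2%). With sex by counts and library set as terms together 0 members were called (2.61% of all), and 6 of 34 were at an unadjusted p under 0.05 (17.7%). At shares of all genes this low, 0 of 34 is no result about the members. The log2 fold change of Apoe was 0.20 within library set 1 and 0.21 within library set 2, and that of Fasn 0.11 and 0.25. That of Lrp1 was 0.21 and 0.25, and that of Npc1 0.19 and 0.19. Over 14 alternatives the adjusted p of Tm7sf2 ran from 0.0410 to 0.870.

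Tm7sf2 was the 1 member whose genotypes did not overlap within either library set. In library set 1 it had 35.8 to 38.9 CPM in WT and 27.4 to 34.6 CPM in Rik null libraries, and in library set 2 it had 44.9 to 46.2 CPM in WT and 40.5 to 43.8 CPM in Rik null libraries. Of all tested genes 2.44% were lower in Rik null brains in this way and 1.43% were higher, and 0 members were higher. Its level differed more between the library sets than between the genotypes: the difference of set 2 from set 1 in mean log2 CPM was 0.41 in Rik null and 0.31 in WT brains, against a log2 fold change between the genotypes of -0.10 (-0.17 with the sets as a block).

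The sterol enzymes varied with the library sets in both genotypes. Of the 18 enzymes 13 had a higher mean log2 CPM in library set 2 than in library set 1 in both genotypes, beside 39.7% of all tested genes. For 7 of the 18 every library of set 2 was above every library of set 1 (Hmgcs1, Mvk, Pmvk, Mvd, Cyp51, Tm7sf2 and Nsdhl), beside 4.75% of all tested genes. The sets were defined from the other genes of these libraries, so this is a description and was not tested. The median difference over the 18 enzymes was 0.23 in Rik null and 0.19 in WT brains. Mvk had 30.6 to 40.4 CPM in set 1 and 42.4 to 49.4 CPM in set 2, and Mvd had 34.6 to 48.2 CPM and 50.04 to 56.3 CPM. Hmgcs1 had 338 to 417 CPM and 444 to 479 CPM. The exceptions were Idi1, Hsd17b7, Ebp and Sc5d, with lower means in set 2 in both genotypes, and Fdps, with differences of opposite sign.

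Of the 8 transport genes 7 had lower means in library set 2 in both genotypes, beside 39.0% of all tested genes, with Stard4 as the exception. Abcg1 had 62.5 to 74.2 CPM in set 1 and 48.7 to 57.1 CPM in set 2, without overlap, and so had Scd1 of fatty acid synthesis, at 158 to 182 CPM and 143 to 154 CPM; 4.26% of all tested genes were lower in set 2 in this way. Npc1 differed by -0.30 on the log2 scale in both genotypes.

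**Figure D4:**
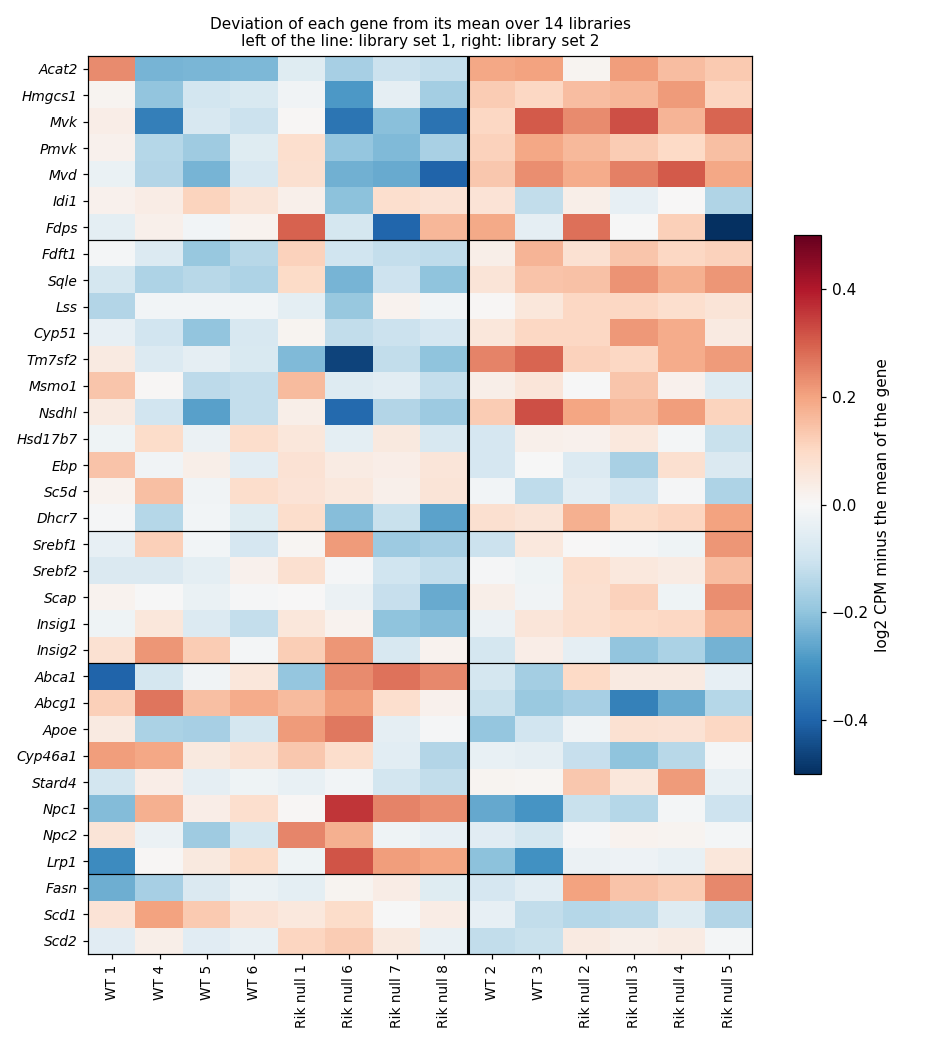
Log2 CPM of each member in each library minus the mean of the gene over the 14 libraries; columns are ordered by library set (line) and then by genotype, and rows by role. The mevalonate and squalene genes are mostly red in the 6 libraries of set 2 in both genotypes, and Abcg1 and Scd1 are blue there.

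Markers of several cell types moved with the library sets. The summed level of 14 oligodendrocyte markers was 16106 to 21208 CPM in set 1 and 11432 to 13158 CPM in set 2, and that of 18 sterol enzymes 1269 to 1484 CPM in set 1 and 1536 to 1607 CPM in set 2. The summed level of 6 markers of oligodendrocyte precursors was 578 to 641 CPM in set 1 and 633 to 673 CPM in set 2. That of 10 astrocyte markers was 4972 to 5744 CPM and 4306 to 4788 CPM, and that of 8 neuron markers 5470 to 5787 CPM and 5145 to 5429 CPM, without overlap. The markers were among the genes that defined the sets, and the part of these cell types in the difference of the sterol enzymes was not tested.

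**Figure D5:**
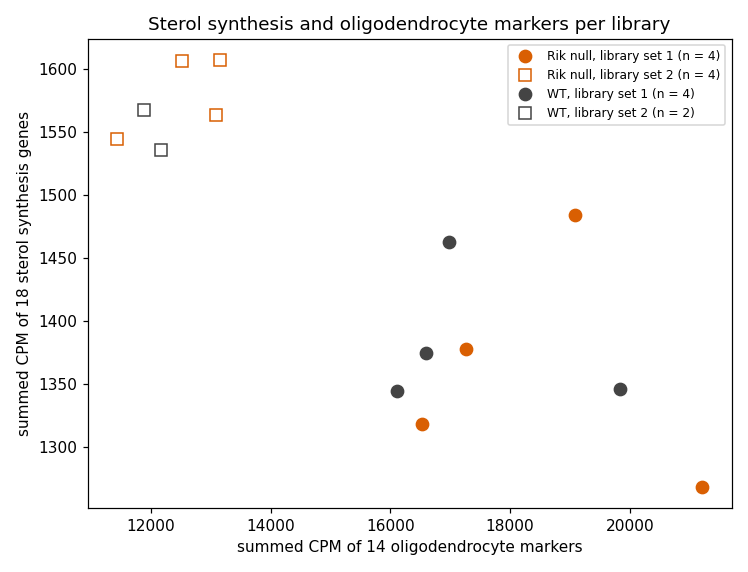
Summed CPM of the 18 sterol synthesis genes against summed CPM of 14 oligodendrocyte markers, 1 point per library; colour gives the genotype and filled circles or open squares the library set. The 6 libraries of set 2 lie at 11432 to 13158 on the x axis and 1536 to 1607 on the y axis, and both genotypes lie in both groups of points.

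Between the genotypes, oligodendrocyte markers did not pass the test, with 0 of 14 called by edgeR and by DESeq2 and 0 at an unadjusted p under 0.05 with either tool. The summed level was 11886 to 19840 CPM in WT and 11432 to 21208 CPM in Rik null libraries. Over all tested genes edgeR called 1.12% as higher and 2.20% as lower in Rik null brains, and DESeq2 called 2.92% and 3.39%. At an unadjusted p under 0.05 were 18.6% of all tested genes with edgeR and 18.9% with DESeq2. Of 10 astrocyte markers edgeR and DESeq2 called 2 as higher, Gfap (log2 fold change 0.34, SE 0.055, adjusted p = 0.00289 with edgeR), the intermediate filament of astrocytes, and Mlc1 (0.18, SE 0.038, adjusted p = 0.0145), a membrane protein of astrocyte endfeet. The summed level of the 10 astrocyte markers was 4306 to 5154 CPM in WT and 4466 to 5744 CPM in Rik null libraries. Of 7 choroid plexus markers both tools called 3 as higher, Folr1 (0.75), Ttr (0.37) and Aqp1 (0.50), with a summed level of 341 to 516 CPM in WT and 488 to 617 CPM in Rik null libraries. Of 6 meningeal fibroblast markers edgeR called 1 as higher, Dcn (0.59), and DESeq2 also called Col1a1 (0.37 in edgeR, adjusted p = 0.0668). Of 6 endothelial markers edgeR called 0 and DESeq2 called 1 as lower, Tie1 (-0.24 in edgeR, adjusted p = 0.0901). All 6 endothelial estimates were below 0, 4 of them at an unadjusted p under 0.05 in edgeR (10.3% of all tested genes). The summed level of these markers was 185 to 223 CPM in WT and 146 to 173 CPM in Rik null libraries, without overlap. Taken singly, 0 of the 6 markers had genotypes without overlap (1.23% of all tested genes were lower without overlap). Of 8 neuron markers edgeR called 0 and DESeq2 called 1 as higher, Map2 (0.18 in edgeR, adjusted p = 0.0637). Apoe is also made by astrocytes, microglia and choroid plexus, and Abca1 by many of the same cells, and the part of these cells in the values of Apoe and Abca1 was not tested. Of 7 microglia markers edgeR and DESeq2 called 0, with 1 and 2 at an unadjusted p under 0.05 (18.6% and 18.9% of all genes). All 7 microglia estimates were above 0, from 0.05 to 0.20 in edgeR.

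Other genes of the same pathways were examined as lists. Of 33 further sterol genes 31 were tested, and 0 were called by edgeR (3.31% of all tested genes) and 0 by DESeq2 (6.31%). At an unadjusted p under 0.05 there were 4 with each tool (18.6% and 18.9% of all tested genes). By edgeR 2 of these had higher and 2 had lower means. The median log2 fold change of the 31 genes was -0.013. Of 11 genes of myelin sphingolipid synthesis 0 were called by either tool, with 1 at an unadjusted p under 0.05 by each. The shares of all tested genes are the same for this list, and its median was -0.05. At these shares of called genes, 0 calls is no result about either list. Of 33 further fatty acid genes edgeR called 0, with 7 at an unadjusted p under 0.05 (18.6% of all tested genes), and DESeq2 called 4 (6.31% of all tested genes). They were Acaca, Plin2 and Agpat3 with higher and Cpt1c with lower values in Rik null brains, named after their values were seen. Acaca, the acetyl-CoA carboxylase that supplies Fasn with malonyl-CoA, had 72.3, 79.3 and 84.6 CPM in WT and 80.5, 90.5 and 99.0 CPM in Rik null libraries (log2 fold change 0.17, SE 0.050, adjusted p = 0.0713 with edgeR). Agpat3, an acyltransferase of phospholipid synthesis, was the 1 gene of these lists whose genotypes did not overlap, at 348 to 378 CPM in WT and 385 to 416 CPM in Rik null libraries (0.11, SE 0.035, adjusted p = 0.0965 with edgeR). Of all tested genes 0.517% were higher in Rik null brains without overlap.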

How the data were processed

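Per the labels, RNA of P14 mouse brains, 8 Rik null and 6 WT, was purified with a lipid tissue kit, and a service company made and sequenced the libraries. Strandedness and annotation release, like the aligner and counter, were not given in the sources used here. In 1 table the authors deposited whole-number counts per gene and library, without normalization, and FPKM values scaled by library and gene length. The same table holds the authors' mean signal per genotype and, from the authors' own comparison, log2 fold changes and p-values with adjusted p-values, none of which was used. The labels name a genome build, but the table's gene positions mostly do not match it (1485 of 52073 genes have the same start), so no position of the table is given. For 77 gene names shared by several identifiers, the one with the most counts was taken.

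Counts were fitted over all 18170 genes kept by filterByExpr with edgeR 4.0.16 (R 4.3.3), TMM factors and the quasi-likelihood test on genotype alone, and p was adjusted by Benjamini-Hochberg over all of them. The fit was tested on simulated counts drawn independently for each gene and library. They held neither library sets nor sex differences, so the simulation says nothing of the effect of these on the calls. Library sets came from average-linkage clustering on the correlation of log2 CPM (prior count 2). A library was read as female above 10 CPM of Xist. The 34 members, the lists and the rule for naming genes were chosen with earlier results of these data known: each called member, the 3 uncalled members with the smallest p in each direction, the highest member of each role by FPKM and the paralog pairs are given with values, and up to 4 called genes of other lists. Alternatives were DESeq2 1.42.0 (the tool of the study's methods), its size factors, TMM without mitochondrially encoded genes, no filter, at least 10 counts in every library, labelled sex, sex by counts, the replicate number as a block, library set as a block, each library set alone, fits without WT 1 and 6 or Rik null 5 and 8, and each library left out. A fit with library set and sex by counts together was added after the data were seen. Promoter windows are from RefSeq on GRCm38.p6. Intervals cover the spread between pups; depth ranged from 15183130 to 30993890 counts per library.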

Additional observations from a re-analysis of the deposited data

Results flagged for a closer look

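Of the 68 groups examined (34 genes in 2 genotypes), 2 held a library that stood apart from the rest of its group, where chance gives about 1 in 20. WT 2 had 2.44 CPM of Fdps, above the other 5 WT libraries at 2.07 to 2.18 CPM. WT 1, the library labelled male that held Xist, had 55.8 CPM of Lss, below the other 5 WT libraries at 61.2 to 64.2 CPM.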

How the results depend on the processing

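The count of members called higher, 0 in the reported edgeR fit, was 3 with DESeq2, 4 with library set as a block, 4 within library set 2 and 0 to 1 with each library left out in turn (Fasn without Rik null 1 or Rik null 8). The count called lower was 1 with library set as a block and 0 with each library left out. Over all tested genes 340 of 18299 were called higher without Rik null 1 and 146 of 17864 without Rik null 8. With replicate numbers 1 to 6 as a block edgeR called 2 members higher, Apoe (adjusted p = 0.0202) and Fasn (0.0266), beside 264 of 17956 tested genes. The numbers share nothing in the labels, and the correlation of the deviations of same-numbered libraries ran from -0.34 to 0.32. Apart from the fits with a library left out, the other alternatives called 0 members. Over all tested genes these fits called from 46 of 18205 (within library set 1) to 621 of 15878 (at least 10 counts in every library). At such shares 0 of 34 is no result about the members. The median log2 fold change of the 18 sterol enzymes ran from -0.021 to 0.059 over the alternatives and from -0.0051 to 0.055 with each library left out, within the spread between libraries.

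Estimates near 0 changed sign for 16 members, each within 0.052 of 0 in the reported fit and none past the threshold after the change; the cause was not tested. These log2 fold changes were as follows. With labelled sex as a term they were Acat2 -0.057, Msmo1 -0.053 and Nsdhl -0.0081. With library set as a block they were Acat2 -0.032, Hmgcs1 -0.0057, Mvk -0.043, Pmvk -0.024, Mvd -0.022, Msmo1 -0.0037, Nsdhl -0.054, Ebp 0.015, Dhcr7 -0.0098 and Scap -0.016. Within library set 1 they were Acat2 -0.011, Hmgcs1 -0.040, Mvk -0.11, Pmvk -0.030, Mvd -0.073, Fdps 0.023, Lss -0.012, Nsdhl -0.054, Ebp 0.027, Dhcr7 -0.066, Srebf1 -0.025, Scap -0.093, Insig1 -0.048 and Stard4 -0.038. Within library set 2 they were Acat2 -0.063, Pmvk -0.012, Msmo1 -0.015, Nsdhl -0.050, Hsd17b7 0.020 and Ebp 2.32e-05. With library set and sex by counts as terms they were Acat2 -0.0067, Hmgcs1 -0.016, Pmvk -0.017, Mvd -0.019, Nsdhl -0.041, Ebp 0.036 and Stard4 -0.013. Without Rik null 5 and 8 they were Fdps 0.028 and Hsd17b7 0.0053. With no filter they were Msmo1 -0.00097 and Nsdhl -0.0012. Without WT 1 and 6 they were Nsdhl -0.017 and Ebp 0.021. With DESeq2 it was Ebp 0.0065. With DESeq2's size factors it was Ebp 0.0043. With sex by counts as a term it was Ebp 0.016. With each library left out, the estimates ran for Acat2 from -0.033 to 0.063, Mvk from -0.019 to 0.11, Pmvk from -0.013 to 0.064, Fdps from -0.059 to 0.049, Msmo1 from -0.020 to 0.036, Nsdhl from -0.048 to 0.077, Ebp from -0.018 to 0.029, Srebf1 from -0.0070 to 0.053 and Scap from -0.024 to 0.046. The other 18 members, among them Fasn, Apoe, Abca1, Lrp1, Scd2, Npc2 and Cyp46a1, kept their sign in every fit run. Depth limits Fdps most, with 695 counts in all.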
